A study of Mus musculus with 12 samples.

Results

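The 10 genes described are signals of the transforming growth factor beta (TGF-beta) superfamily and the first proteins that receive or brake them: the ligand genes Tgfb1, Tgfb2, Tgfb3, Inhba, Gdf15, Bmp4 and Bmp7, the receptor genes Tgfbr1 and Tgfbr2, and the inhibitor gene Smad7. They were chosen by symbol from the 46078 Ensembl genes of the count table, and all 10 matched. All 10 also passed the filter on low counts and are among the 15866 genes tested. Ventrolateral white matter of the spinal cord of C57Bl6 mice was cut out by laser capture, which frees a chosen area of a section under the microscope, and its RNA was sequenced. There were 4 groups with 3 libraries each: young naïve (6 weeks old), middle-aged naïve (8 months old), and young injured and middle-aged injured mice of the same ages, whose tissue was taken 72 h (day 3) after lysolecithin, a detergent-like lipid that removes myelin. Each library came from a pool of 5 mice, so the spread from mouse to mouse inside a pool was not measured. The naïve mice had no lesion, so the injection and the lysolecithin cannot be told apart. The labels give the ages only as young and middle-aged, and the weeks and months are those of the methods.

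TGF-beta superfamily ligands are secreted dimers that bind pairs of type I and type II receptor kinases, which phosphorylate SMAD proteins that move to the nucleus. SMAD2 and SMAD3 carry TGF-beta and activin signals, and SMAD1, SMAD5 and SMAD9 carry those of bone morphogenetic proteins (BMPs). In the nervous system TGF-beta1 is made largely by microglia and macrophages and is needed for the mature state of microglia, while TGF-beta2 and TGF-beta3 are known from astrocytes and neurons, and BMPs steer progenitors of oligodendrocytes toward astrocytes.

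Pools held 9834447 to 12807437 counts, and 3 counts, taken as the floor of detection, corresponded to between 0.22 and 0.322 CPM (counts per 1e6 counts after edgeR's TMM scaling, the unit of every level below). Intervals and floors cover counting error only, since amplified reads are not independent molecules. The labelled tissue carried its defining markers: 6 oligodendrocyte genes summed to 53000 to 102000 CPM in the naïve pools and to 7930 to 20300 CPM in the injured pools. Over the same pools, 6 pan-myeloid genes went from between 71.8 and 147 CPM to between 1370 and 1950 CPM, 5 genes of recruited monocytes from between 0.0906 and 1.54 CPM to between 83.3 and 232 CPM, and 5 genes of fibroblasts and meninges from between 61 and 105 CPM to between 281 and 937 CPM. The 6 astrocyte genes summed to 10000 to 12300 CPM in naïve and 3650 to 5790 CPM in injured pools. The 6 genes of homeostatic microglia summed to between 411 and 856 CPM in naïve and between 3160 and 4380 CPM in injured pools. The single genes did not all rise. At an adjusted p under 0.05 in edgeR, 3 were higher and 1 lower with injury in young mice, and 2 higher and 2 lower in middle-aged mice. Their median log2 fold change was 1.12 in young and -0.13 in middle-aged mice. The 5 neuronal genes went from between 690 and 2010 CPM to between 277 and 483 CPM. The other sums, given for naïve and then injured pools, were those for oligodendrocyte progenitors (140 to 244 and 222 to 375 CPM), endothelium (121 to 211 and 150 to 231 CPM), pericytes (240 to 390 and 131 to 212 CPM) and Schwann cells (1.4 to 5.56 and 0.799 to 32 CPM), and neutrophil genes summed to at most 3.08 CPM. No marker gene of these lists was at 0 in all pools of the series. Apart from endothelium and Schwann cells, whose naïve and injured ranges overlapped at each age, these sums moved with injury beside every result given here for injury. The part of the sums in those results was not tested. In bulk tissue, fewer cells of a type and less RNA per cell cannot be told apart.

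Short stretches upstream of 4 members are shown because these genes moved in different directions after injury: Tgfb1, Tgfbr2 and Gdf15 rose and Tgfb2 fell. Each stretch is 60 bases from RefSeq on GRCm38.p6, written 5′ to 3′ on the strand of the gene, and capitals mark the SMAD-binding box CAGAC or its complement GTCTG. Those of Tgfb2, Tgfbr2 and Gdf15 were cut around their first box, so the box stands at the same place in each by choice. They lie 241 to 182, 180 to 121 and 222 to 163 bases before the start. That of Tgfb1, which has no box, lies 80 to 21 bases before it, so the stretches are not like positions. The positions, in the order printed, are chr7:25686922-25686981 on the plus strand for Tgfb1, chr1:186706171-186706230 on the minus strand for Tgfb2, chr9:116175484-116175543 on the minus strand for Tgfbr2 and chr8:70632619-70632678 on the minus strand for Gdf15. The stretch for Tgfb2 also overlaps the span of Gm29491, an antisense gene on the other strand.
Tgfb1: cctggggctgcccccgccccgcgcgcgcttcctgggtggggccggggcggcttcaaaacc
Tgfb2: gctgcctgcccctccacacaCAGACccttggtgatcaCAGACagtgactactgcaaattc
Tgfbr2: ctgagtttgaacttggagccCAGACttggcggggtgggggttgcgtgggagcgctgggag
Gdf15: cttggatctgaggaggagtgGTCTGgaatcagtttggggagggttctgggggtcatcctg

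The table of 250 bases before each RefSeq start holds 9 windows for 7 of the members, none for Tgfb3 and Bmp7, and that of Smad7 was not used here. Tgfb2 had the box at 221 and 204 bases before its start, Tgfbr2 at 160 bases and the Gdf15 window shown at 202 bases. Tgfb1 had none in its window, nor had Inhba or Bmp4. Tgfbr1 and Gdf15 have 2 windows each, of which 1 of Tgfbr1 and both of Gdf15 held the box. In all, 5 of the 9 windows held CAGAC on either strand, against 42.2% of the 32851 windows of all genes. The AP-1 motif TGANTCA (6.75% of all windows) and the cyclic AMP element TGACGTCA (1.55%) were in 0 of the 9. A short motif of this kind is a match of letters and not a measured binding site.

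Injury was the comparison in which the members moved. In young mice 6 of the 10 were higher and 3 lower in injured than in naïve tissue, taking an adjusted p under 0.05 as the threshold (edgeR's quasi-likelihood test, Benjamini-Hochberg adjustment over all genes tested), where 28.3% of all genes tested were called higher and 26.3% lower. In middle-aged mice 5 were higher and 3 lower, against 29.2% and 29.3% of all genes. Called at both ages were 5 members higher (Tgfb1, Inhba, Gdf15, Tgfbr1 and Tgfbr2) and 3 lower (Tgfb2, Tgfb3 and Smad7), where 24.5% of all genes were higher and 22.8% lower at both. The median log2 fold change of the members was 1.51 in young and 1.14 in middle-aged mice, and that of all genes tested was 0.00054 and -0.03. Between the ages no member was called in either state.

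**Figure D1:**
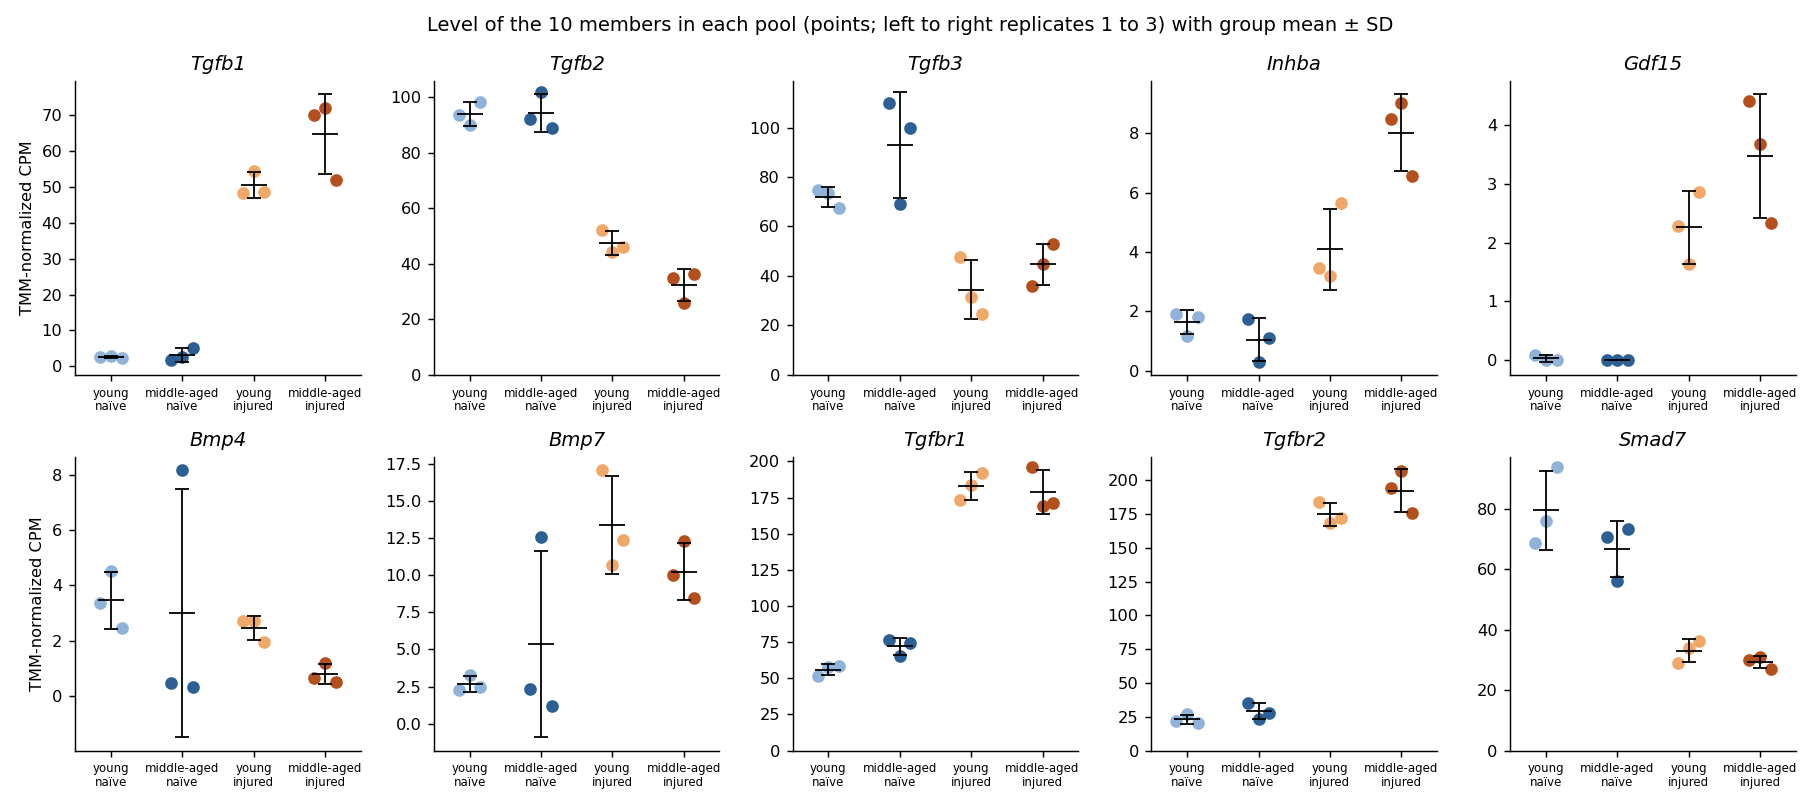
Level of each member in CPM (vertical axis, TMM-normalized, a separate linear scale for each gene) in the 12 pools (points) by group, with the group mean ± SD in black. Injured pools lie above all naïve pools of the same age for Tgfb1, Inhba, Gdf15, Tgfbr1 and Tgfbr2 and below them for Tgfb2, Tgfb3 and Smad7, and 1 middle-aged naïve pool stands high for Bmp4 and Bmp7.

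Tgfb1 (ENSMUSG00000002603, chr7:25687002-25705077, plus strand) on GRCm38, the TGF-beta of myeloid cells, was low in naïve white matter and was 19.7-fold higher with injury in young and 20.1-fold higher in middle-aged mice. Its counts were 27, 32 and 21 in the young naïve pools and 18, 24 and 65 in the middle-aged naïve pools. In the injured pools they were 659, 704 and 644 in young mice and 844, 903 and 601 in middle-aged mice. No injured pool overlapped a naïve one. The naïve levels were 2.54 ± 0.329 CPM (SD, n = 3 pools) at the young and 3.15 ± 1.82 CPM at the middle age, and the injured levels were 50.5 ± 3.54 and 64.7 ± 11.1 CPM. The log2 fold change with injury was 4.30 in young mice (standard error, SE, 0.30; adjusted p = 3.03e-08) and 4.33 in middle-aged mice (SE 0.29, adjusted p = 1.92e-08). Without middle-aged naïve replicate 3, the pool with 65 counts, the middle-aged change was 4.93.

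Tgfb2 (ENSMUSG00000039239, chr1:186622792-186705989, minus strand) moved the other way. Its level was 93.6, 90.0 and 98.4 CPM in the young naïve pools and 92.3, 102 and 88.8 CPM in the middle-aged naïve pools. In the injured pools it was 52.2, 44.1 and 45.9 CPM in young mice and 34.8, 25.8 and 36.5 CPM in middle-aged mice. The naïve groups overlapped, while every middle-aged injured pool lay under every young injured pool. With injury Tgfb2 fell by 0.99 on the log2 scale in young mice (SE 0.14, adjusted p = 2.98e-05) and fell by 1.55 in middle-aged mice (SE 0.14, adjusted p = 3.84e-07). In injured tissue its log2 difference between middle-aged and young mice was -0.55 (SE 0.14), which had an unadjusted p = 0.00143 in edgeR and did not pass over all genes (adjusted p = 0.0839). The difference of the 2 injury effects was -0.56 (SE 0.19, adjusted p = 0.323), so a larger fall in middle-aged mice was not shown.

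Tgfb3 (ENSMUSG00000021253, chr12:86056745-86079041, minus strand) also fell with injury, with more spread between pools. It stood at 74.9, 73.5 and 67.4 CPM in young naïve pools, at 110, 69.1 and 99.7 in middle-aged naïve pools, at 47.5, 31.4 and 24.5 in young injured pools and at 36.0, 45.0 and 52.9 in middle-aged injured pools. The injured pools lay under the naïve pools at both ages, and the ages overlapped in both states. The log2 fold change was -1.06 at both ages (SE 0.23 at each; adjusted p = 0.0012 in young and 0.00105 in middle-aged mice). Tgfb3 overlaps Ttll5 and Gm37804 on the opposite strand, and the strand setting of the counting is not given in the sources used here. Ttll5 had 345 to 839 counts in a pool, of the order of Tgfb3 itself. Gm37804 had at most 79 counts in a pool and was the gene whose level was most like that of Tgfb3 across the 12 pools (Pearson's r = 0.963).

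The balance of the 3 TGF-beta transcripts differed between naïve and injured tissue. CPM per kilobase of merged exons allows only a rough comparison of genes, since the lengths of the transcripts present were not measured. Any reads shared with Ttll5 would also enter the level of Tgfb3. On this scale Tgfb1 made up 1.33 ± 0.171% (SD, n = 3) of the summed level of the 3 in young naïve and 1.42 ± 0.781% in middle-aged naïve pools. In the young and middle-aged injured pools it made up 35.7 ± 5.5% and 40.7 ± 7.6%. The share of Tgfb2 was 42.7 ± 2.39% and 37.3 ± 7.33% in young and middle-aged naïve pools and 29.0 ± 2.54% and 17.7 ± 3.3% in the injured pools. Tgfb3 held 55.9 ± 2.27% and 61.3 ± 7.31% in naïve and 35.2 ± 7.04% and 41.6 ± 6.83% in injured pools. The sum itself was 38.0 ± 0.719 and 44.4 ± 5.27 CPM per kilobase in young and middle-aged naïve pools and 28.4 ± 3.97 and 31.6 ± 0.924 in injured pools. The lowest Tgfb1 share of an injured pool was 29.4% and the highest of a naïve pool 2.25%.

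**Figure D2:**
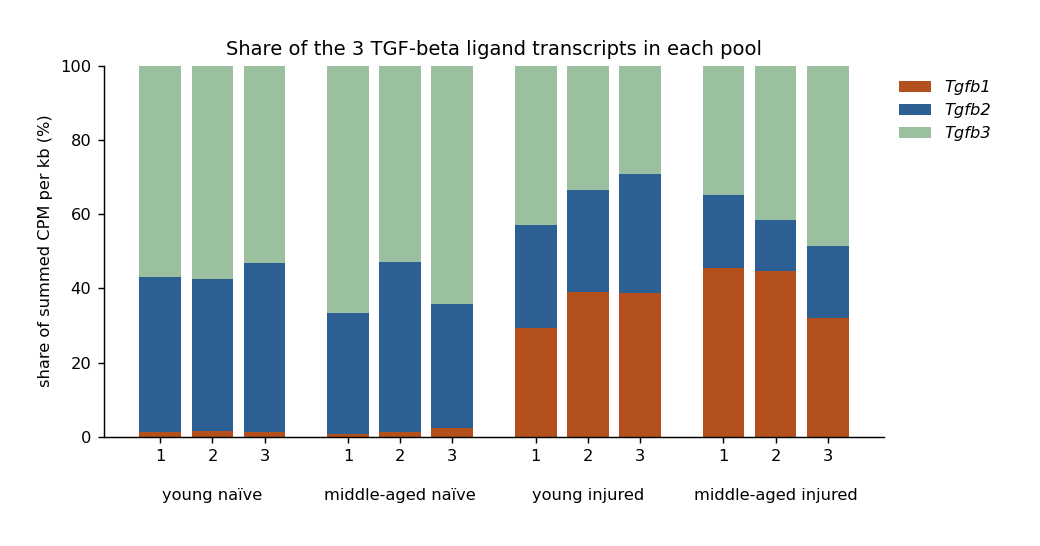
Share (vertical axis, percent of the summed CPM per kilobase of exon) of Tgfb1, Tgfb2 and Tgfb3 in each of the 12 pools, numbered by replicate within each group. Tgfb1 holds 0.702% to 2.25% in naïve pools and 29.4% to 45.5% in injured pools.

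Inhba (ENSMUSG00000041324, chr13:16011851-16031621, plus strand) encodes the beta-A subunit that dimerizes into activin A. Its counts were 21, 13 and 17 in young naïve pools, 18, 3 and 14 in middle-aged naïve pools, 47, 41 and 75 in young injured pools and 102, 113 and 76 in middle-aged injured pools. The 2 injured groups lay above the naïve groups and did not overlap each other. The log2 fold change with injury was 1.32 in young mice (SE 0.42, adjusted p = 0.0161) and 2.90 in middle-aged mice (SE 0.44, adjusted p = 5.41e-05). The call in young mice was lost without young naïve replicate 2 (1.13, adjusted p = 0.0685) or without young injured replicate 3 (1.01, adjusted p = 0.089). Between the ages, Inhba stood at 8.02 ± 1.29 CPM (SD, n = 3) in middle-aged injured and 4.09 ± 1.35 in young injured mice, a log2 difference of 0.97 (SE 0.38, adjusted p = 0.362), and the injury effects differed by 1.58 (SE 0.61, adjusted p = 0.383).

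Gdf15 (ENSMUSG00000038508, chr8:70629393-70632456, minus strand), a divergent member of the family that is secreted by stressed cells and acts through the receptor GFRAL in the hindbrain, was at or under the floor in all 6 naïve pools. It had 1 count in 1 young naïve pool and 0 in the other naïve pools. The injured pools had 31, 21 and 38 counts in young mice and 53, 46 and 27 in middle-aged mice. Those are 2.25 ± 0.617 and 3.47 ± 1.05 CPM (SD, n = 3), so the transcript stayed rare. In middle-aged mice it was at least 12.3-fold higher with injury, taking the naïve pools at 3 counts per library, and in young mice the ratio of scaled counts was 70.8 (exact 95% counting interval 12.4 to 2830, from 90 counts against 1). The adjusted p was 4.79e-05 in young and 7.5e-06 in middle-aged mice. The ages overlapped in injured tissue (log2 difference 0.62, SE 0.44, adjusted p = 0.821).

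The 2 BMP genes behaved differently from each other, and for both of them 1 pool decided the middle-aged values. Bmp4 (ENSMUSG00000021835, chr14:46383520-46390669, minus strand) encodes a ligand that signals through SMAD1, SMAD5 and SMAD9. It had 37, 50 and 23 counts in young naïve pools, 5, 78 and 4 in middle-aged naïve pools, 37, 35 and 26 in young injured pools and 8, 15 and 6 in middle-aged injured pools. Injured and naïve pools overlapped at both ages, and neither change was called (log2 fold change -0.49, SE 0.80, adjusted p = 0.629 in young and -1.86, SE 0.89, adjusted p = 0.0867 in middle-aged mice). Replicate 2 of the middle-aged naïve group held 78 of that group's 87 Bmp4 counts. Without it the change with injury in middle-aged mice turned to 1.0 (adjusted p = 0.146), and Bmp4 was lower in middle-aged than in young naïve mice, with a log2 difference of -3.10 (SE 0.53, adjusted p = 0.0046), against -0.24 (adjusted p = 0.911) with it. The fall in middle-aged mice was called without middle-aged naïve replicate 1 (-2.36, adjusted p = 0.0245) or replicate 3 (-2.41, adjusted p = 0.0167). In injured tissue, where that pool plays no part in the level, the middle-aged pools (0.664, 1.20 and 0.518 CPM) all lay under the young pools (2.72, 2.71 and 1.96 CPM), without passing the test (log2 difference -1.61, SE 0.88, adjusted p = 0.655).

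Bmp7 (ENSMUSG00000008999, chr2:172868012-172940321, minus strand), a second ligand of that branch, rose with injury in young mice, from 25, 36 and 23 counts in the naïve pools to 233, 138 and 165 in the injured pools (log2 fold change 2.32, SE 0.60, adjusted p = 0.00426). In middle-aged mice the naïve pools had 24, 120 and 15 counts and the injured pools 121, 154 and 98. These overlapped only through replicate 2 of the naïve group, and the change of 0.97 (SE 0.56, adjusted p = 0.157) was not called. Without that pool it was 2.57 (SE 0.34, adjusted p = 1.33e-05). The same pool had 105 CPM over the fibroblast and meninges genes, against 64.1 and 66.7 CPM in the other middle-aged naïve pools, 5.56 CPM over the Schwann cell genes, against 2.02 and 1.52 CPM, and 856 CPM over the homeostatic microglia genes, against 647 and 725 CPM. Its neuronal sum was also the highest of its group (1320 CPM, against 1170 and 1210 CPM), and its pan-myeloid sum lay between the others. It was lowest for oligodendrocyte genes (53000 CPM, against 60300 and 57400 CPM). The same held for progenitors, astrocytes, endothelium, pericytes, recruited monocytes and neutrophils. The part of all these sums in the Bmp4 and Bmp7 of this pool was not tested. The counts of this pool also stood apart over all genes, with a chi-square per degree of freedom of 38.6 and 35.3 against the other pools of its group, which gave 13.3 between themselves. The injury effects on Bmp7 at the 2 ages differed by -1.36 (SE 0.81, adjusted p = 0.645).

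Both TGF-beta receptor genes rose. Tgfbr2 (ENSMUSG00000032440, chr9:116084293-116175360, minus strand), the type II receptor that binds ligand first, had 237, 297 and 191 counts in young naïve pools, 368, 225 and 350 in middle-aged naïve pools, 2500, 2161 and 2285 in young injured pools and 2340, 2587 and 2041 in middle-aged injured pools. Its pools were far apart between naïve and injured tissue, and overlapped between the ages. The log2 fold change was 2.92 (SE 0.16, adjusted p = 2.71e-09) in young and 2.73 (SE 0.16, adjusted p = 3.78e-09) in middle-aged mice. Tgfbr1 (ENSMUSG00000007613, chr4:47353222-47414931, plus strand), the type I kinase that it activates, stood in naïve tissue at 51.4, 57.7 and 58.6 CPM in young and 76.5, 65.6 and 74.7 CPM in middle-aged pools. In injured tissue it stood at 173, 184 and 192 CPM in young and 196, 169 and 171 CPM in middle-aged pools. With injury its log2 level went up by 1.71 in young mice (SE 0.11, adjusted p = 2.05e-08) and by 1.30 in middle-aged mice (SE 0.11, adjusted p = 2.31e-07). The young and middle-aged naïve pools of Tgfbr1 did not overlap, but the log2 difference of 0.37 (SE 0.11, adjusted p = 0.092) was not called. Of the 6 pan-myeloid genes 4 were called higher in middle-aged naïve mice, with sums of 110 to 147 CPM against 71.8 to 102 CPM in young naïve pools. Homeostatic microglia sums were also higher (647 to 856 against 411 to 547 CPM, 3 of 6 genes called). So were those of recruited monocytes and endothelium. Sums of oligodendrocyte genes (53000 to 60300 against 86700 to 102000 CPM, 3 of 6 called lower) and of their progenitors were lower. The other sums overlapped between the ages. The part of all these markers in the levels of Tgfbr1 and Tgfbr2 was not tested. The difference of the injury effects on Tgfbr1 was not called (-0.41, SE 0.16, adjusted p = 0.39).

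Smad7 (ENSMUSG00000025880, chr18:75367529-75395935, plus strand) encodes the inhibitory SMAD that occupies activated type I receptors and is itself induced by TGF-beta in many cells. It fell at both ages. Its level was 68.7, 76.1 and 94.0 CPM in young naïve and 70.7, 56.1 and 73.5 CPM in middle-aged naïve pools, against 28.9, 34.1 and 36.4 CPM in young injured and 29.9, 30.9 and 27.0 CPM in middle-aged injured pools. Every injured pool lay below every naïve pool. It fell by 1.26 on the log2 scale in young mice (SE 0.15, adjusted p = 8.26e-06) and fell by 1.19 in middle-aged mice (SE 0.16, adjusted p = 1.34e-05). In these data the receptor transcripts and that of Smad7 moved in opposite directions. This was not so for inhibitors in general: of the 9 intracellular inhibitors described below, 5 rose and 1, Smad7, fell at both ages.

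**Figure D3:**
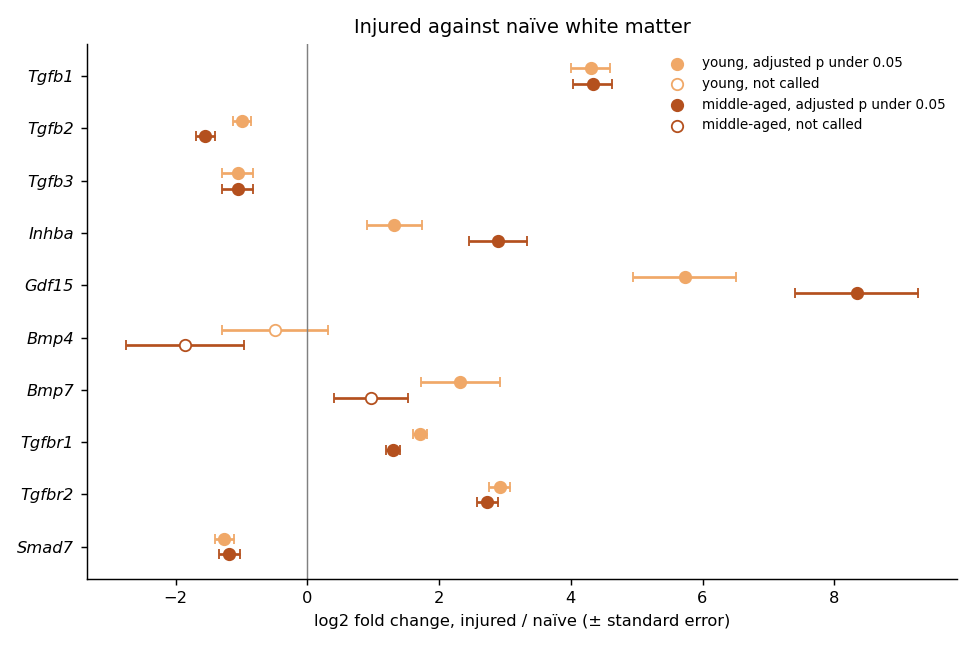
Log2 fold change of injured against naïve white matter (horizontal axis, ± standard error) of the 10 members in young and middle-aged mice, with filled points for an adjusted p under 0.05. Tgfb2, Tgfb3 and Smad7 lie left of 0 and Tgfb1, Inhba, Gdf15, Tgfbr1 and Tgfbr2 right of it at both ages, and the fitted values of Gdf15 depend on the prior count because its naïve pools had 1 count in all.

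Per kilobase of exon, the order of the members' levels differed between naïve and injured tissue. The scale is rough between genes, with the limits given above for the shares. In young naïve pools Tgfb3 (21.3 ± 1.18 CPM per kilobase, SD, n = 3), Smad7 (17.6 ± 2.88) and Tgfb2 (16.2 ± 0.726) stood first, each within the spread of its neighbour in this order. Tgfbr1 (8.56 ± 0.604) and Tgfbr2 (2.81 ± 0.418) came next, and Tgfb1 was at 0.504 ± 0.0652. In middle-aged naïve pools Tgfb3 (27.5 ± 6.29) stood above Tgfb2 (16.3 ± 1.2) and Smad7 (14.8 ± 2.06), which lay within their spread of each other, and Tgfbr1 (11.1 ± 0.897) followed. In young injured pools Tgfbr1 (28 ± 1.49) and Tgfbr2 (21.3 ± 1.01) stood first, and Tgfb3 (10.2 ± 3.48), Tgfb1 (10 ± 0.703) and Tgfb2 (8.18 ± 0.734) lay close together. Middle-aged injured pools also had Tgfbr1 (27.3 ± 2.30) and Tgfbr2 (23.5 ± 1.87) at the top. Inhba was the lowest member in young injured pools (0.64 ± 0.212) and Bmp4 in middle-aged injured pools (0.353 ± 0.159).

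Across the 12 pools, the genes whose log2 CPM followed a member most closely were Sh3bp2 for Tgfb1 (r = 0.997), Pik3c2b for Tgfb2 (0.993), Apbb1ip for Tgfbr1 (0.998), Arg1 for Tgfbr2 (0.998), Enoph1 for Smad7 (0.991), Actr2 for Gdf15 (0.993), Atf6 for Inhba (0.970), Col4a1 for Bmp7 (0.975) and Atp5d for Bmp4 (0.904). These are Pearson coefficients over n = 12 pools that fall into the same 4 groups, so any gene that separates naïve from injured pools scores high, and they are given as a description.

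A wider list of 103 genes of the pathway placed the members among their partners: 102 matched a gene of the table and 80 were tested, the 10 members included. In young mice 37 were higher (46.2%) and 20 lower (25.0%) with injury, where 28.3% and 26.3% of all genes tested were. In middle-aged mice 34 were higher (42.5%) and 19 lower (23.8%), against 29.2% and 29.3%. Called at both ages were 32 higher (40%) and 17 lower (21.2%), against 24.5% and 22.8% of all genes, with 0 in opposite directions. The shares of lower genes lay near or somewhat under those of all genes. Without the members, 27 of 70 were higher and 14 lower at both ages. The median log2 fold change of the 80 was 0.36 in young and 0.48 in middle-aged mice, and it did not change when genes with 0 counts in the naïve pools were set at their bounds.

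**Figure D4:**
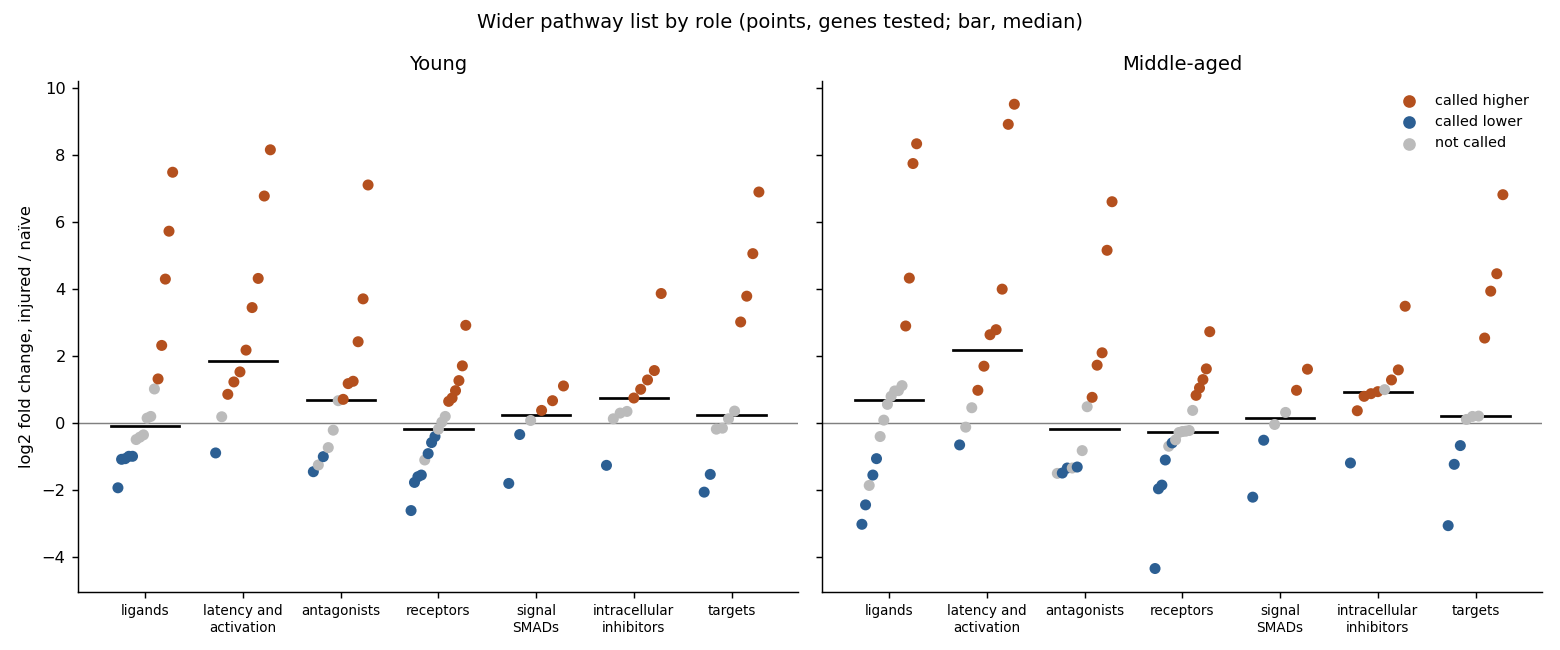
Log2 fold change of injured against naïve tissue (vertical axis) of the 80 tested genes of the wider list by role in young (left) and middle-aged mice (right), with a bar at the median of each role and colours for an adjusted p under 0.05. The median of the latency and activation genes stands at 1.86 in young and 2.17 in middle-aged mice, and values of genes with hardly any naïve counts, such as Ltbp2, Gdf3 and Gdf15, depend on the prior count.

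Among the 16 ligands tested, 4 rose and 4 fell at both ages, 25.0% in each direction, near the 24.5% and 22.8% of all genes. Gdf3, a ligand of the nodal branch, had 0 to 8 counts in naïve pools, 224 to 300 in young injured pools and 548 to 882 in middle-aged injured pools (log2 fold change 7.49 with adjusted p = 1.56e-07 in young and 7.75 with adjusted p = 1.69e-08 in middle-aged mice). With so few naïve counts these values moved to 8.43 without young naïve replicate 3 and to 10.18 without middle-aged naïve replicate 2. Bmp6 fell from between 16.9 and 28.1 CPM to between 7.08 and 16.4 CPM in young mice (log2 fold change -0.99, adjusted p = 0.00971) and from between 32.1 and 53.0 CPM to between 4.55 and 5.40 CPM in middle-aged mice (-3.02, adjusted p = 1.49e-06). Bmp6 overlaps Txndc5 on the other strand, with which reads cannot be told apart without strand. Gdf10 was the other ligand beside Tgfb2 and Tgfb3 that fell at both ages.

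The genes of latency and activation, which hold TGF-beta in an inactive complex and release it, had 7 higher (70.0%) and 1 lower (10%) of 10 at both ages, against 24.5% and 22.8% of all genes. Thbs1, whose product thrombospondin-1 can free TGF-beta from its latent complex, went from 0.729 to 1.78 CPM across the naïve pools to 470, 241 and 261 CPM in young injured and 693, 852 and 588 CPM in middle-aged injured pools. Its log2 fold change was 8.16 (SE 0.35, adjusted p = 3.08e-10) and 8.92 (SE 0.35, adjusted p = 1.53e-10). Nrros, which tethers latent TGF-beta1 on myeloid cells, rose by 4.32 (adjusted p = 1.47e-07) and 4.0 (adjusted p = 1.62e-07) on the log2 scale, and Lrrc32, the tether of regulatory T cells and endothelium, rose by 3.45 (adjusted p = 9.38e-06) and 2.79 (adjusted p = 3.35e-05), from at most 20 counts per naïve pool. Ltbp2 had 2 counts in all in young naïve pools and 0 in middle-aged naïve pools, and was at least 28.1-fold higher with injury in middle-aged mice (adjusted p = 2.4e-07). Itgb8, the integrin subunit that activates TGF-beta, was the one gene of the group that fell at both ages.

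Among 17 receptors and co-receptors, 5 rose and 5 fell at both ages, 29.4% in each direction, beside 24.5% and 22.8% of all genes. Beside Tgfbr1 and Tgfbr2, those that rose were Acvr1, Acvrl1 and Eng, and those that fell were Bmpr1b, Amhr2, Rgma, Rgmb and Tdgf1. Bmpr1b, a type I BMP receptor, fell from 68.1 to 80.7 CPM down to 21.9 to 25.6 CPM in young mice (log2 fold change -1.60, adjusted p = 2.08e-06) and from 57.9 to 88.0 CPM down to 17.8 to 24.5 CPM in middle-aged mice (-1.85, adjusted p = 4.68e-07). Tdgf1, the co-receptor Cripto, fell by 2.61 (adjusted p = 6.04e-06) and by 4.34 (adjusted p = 1.6e-07) on the log2 scale. It had 23 to 33 counts in young injured pools and 4 to 10 in middle-aged injured pools, the latter near the floor.

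Of 12 antagonists outside the cell, 5 rose (41.7%) and 2 fell (16.7%) at both ages, where 24.5% and 22.8% of all genes did. The BMP antagonist gene Chrdl1 rose from 5 to 8 counts in young naïve pools to 92 to 123 in young injured pools (log2 fold change 3.71, adjusted p = 2.16e-06), and in middle-aged mice the ratio was 39.3 (exact 95% counting interval 15.1 to 146, from 175 counts against 4, adjusted p = 7.69e-07). Fstl3, which binds activins, rose by 1.25 (adjusted p = 0.00965) and 1.73 (adjusted p = 0.0012) on the log2 scale, and Grem1, Fst and Twsg1 were also called at both ages. Bmper (-1.45, adjusted p = 0.000517 and -1.34, adjusted p = 0.000931) and Dand5 (-1.0, adjusted p = 0.0139 and -1.31, adjusted p = 0.00205) fell. The call of Dand5 in young mice was lost without young naïve replicate 2 (adjusted p = 0.0561) or young injured replicate 2 (adjusted p = 0.071).

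Of the 6 SMADs that carry the signal, 2 rose (33.3%) and 2 fell (33.3%) at both ages, against 24.5% and 22.8% of all genes. Smad3 rose by 1.11 (SE 0.18, adjusted p = 0.000118) in young and 1.61 (SE 0.18, adjusted p = 3.38e-06) in middle-aged mice, and Smad2 rose by 0.67 (adjusted p = 0.00454) and 0.98 (adjusted p = 0.000257). Smad9 of the BMP branch fell by 1.80 (adjusted p = 7.24e-06) and by 2.21 (adjusted p = 1.12e-06), and Smad5 fell by 0.34 (adjusted p = 0.0272) and by 0.51 (adjusted p = 0.00233). The young call of Smad5 was lost without young naïve replicate 2 (adjusted p = 0.0752) or 3 (0.0548), without young injured replicate 2 (0.108) or 3 (0.0661), with library totals (0.328) and without a filter on low counts (0.0848). Smad1, also of the BMP branch, was called higher in young and not called in middle-aged mice, and Smad4, the partner of both branches, was not called. The branches were not tested against each other.

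Among the 9 intracellular inhibitors, Smad7 was the one that fell at both ages (11.1%, with 22.8% of all genes), and 5 rose (55.6%, with 24.5% of all genes). Tgif1, a nuclear repressor of SMAD targets, rose by 3.87 (adjusted p = 6.6e-09) and 3.49 (adjusted p = 1.06e-08), the repressor gene Skil by 1.57 (adjusted p = 2.34e-07) and 1.59 (adjusted p = 1.83e-07), and Tgif2 by 1.29 at both ages (adjusted p = 5.43e-05 and 3.92e-05). Ski and Pmepa1 were the others. Smad6, the inhibitory SMAD of the BMP branch, was called at neither age.

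Of the 10 genes listed as targets, 4 rose (40%) and 2 fell (20%) at both ages, where 24.5% of all genes rose and 22.8% fell. Among those that rose were genes known as TGF-beta targets in many cells: Col1a1 (log2 fold change 5.06, adjusted p = 1.28e-07 and 4.46, adjusted p = 1.02e-06), Tgfbi (3.79, adjusted p = 4.48e-09 and 3.94, adjusted p = 2.23e-09) and Ccn2. Those that fell, Id4 (-2.06, adjusted p = 9.16e-07 and -3.06, adjusted p = 2.53e-08) and Hey1, are on the list as BMP targets, as are Id1, Id2 and Atoh8, which were called at neither age, and Id3, called lower in middle-aged and not called in young mice. Thbs1, Fstl3, Tgif2 and Id4 overlap other annotated genes, with which their reads could be shared.

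Age gave few calls, among the members and among all genes alike, so a count of 0 says nothing particular to the members. In naïve tissue 0 of the 10 were called by edgeR, where 3.80% of all genes were. At an unadjusted p under 0.05 there were 2 (Tgfbr1 and Tgfbr2), with 18.3% of all genes, and DESeq2 called 1 (Tgfbr1) and 7.02% of all genes. In injured tissue edgeR called 0, against 1.15% of all genes, with 2 at an unadjusted p under 0.05 (Tgfb2 and Inhba, 9.62% of all genes) and 1 by DESeq2 (Tgfb2, 2.84% of all genes). With a model of the 6 injured pools alone, Tgfb2 (adjusted p = 0.0366), Inhba (0.0419) and Bmp4 (0.029) were called, as were 5.44% of all genes, and Tgfb2 was also called with library totals (0.0429) or without middle-aged naïve replicate 2 (0.0395). Without that pool Tgfbr1 was called in naïve tissue (0.43, adjusted p = 0.0483). For the difference of the injury effects edgeR and DESeq2 both called 0 of the 10, against 0.139% of all genes by edgeR and 1.50% by DESeq2, and 3 members and 9.92% of all genes had an unadjusted p under 0.05 (the members were Tgfbr1, Tgfb2 and Inhba). The standard errors show what these pools could resolve: 0.11 to 0.15 on the log2 scale for Tgfb2, Tgfbr1, Tgfbr2 and Smad7, and 0.88 for Bmp4 in injured tissue. The comparisons of injury and of age share pools, so they are not independent of each other.

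**Figure D5:**
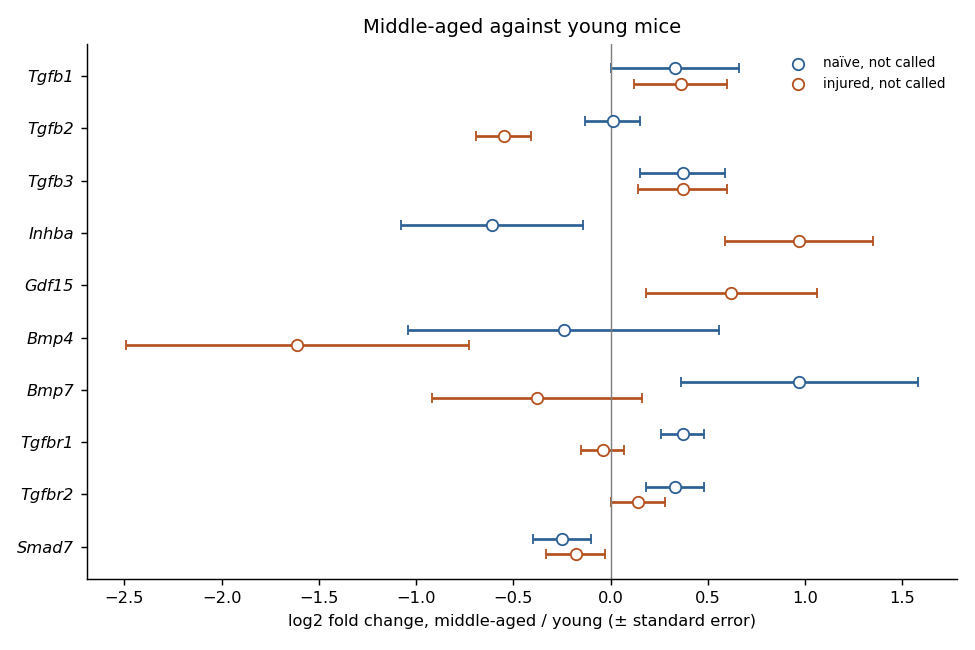
Log2 fold change of middle-aged against young mice (horizontal axis, ± standard error) of the members in naïve and injured tissue, with open points because none had an adjusted p under 0.05. In injured tissue Tgfb2 lies at -0.55 and Inhba at 0.97, and Gdf15 is not drawn for naïve tissue, where it had 1 count in all.

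On the wider list edgeR called 0 of 80 genes for age in naïve tissue, against 3.80% of all genes. There 18 had an unadjusted p under 0.05 and DESeq2 called 3, against 18.3% and 7.02% of all genes. For the difference of the injury effects edgeR called 0, against 0.139% of all genes. The other 2 counts were 12 and 4, against 9.92% and 1.50% of all genes. In injured tissue 5 were called, 2 higher (2.5%) and 3 lower (3.75%), against 0.24% and 0.908% of all genes. Gdf3 (log2 difference 1.70, adjusted p = 0.0212) and Thbs1 (1.13, adjusted p = 0.0271) were higher in middle-aged mice, and Col1a1 (-1.92, adjusted p = 0.0107), Tdgf1 (-1.73, adjusted p = 0.0469) and Id4 (-0.99, adjusted p = 0.0331) were lower. The value of Tdgf1 rests on 4 to 10 counts per middle-aged injured pool. The pools of Col1a1 were 98.8, 81.2 and 56.3 CPM in young injured and 21.9, 30.1 and 10.3 CPM in middle-aged injured mice, and those of Id4 were 22.8, 22.8 and 25.7 CPM against 14.4, 7.11 and 14.3 CPM. Neither pair of groups overlapped. The sums of the fibroblast and meninges genes, 583 to 937 CPM in young and 281 to 529 CPM in middle-aged injured pools, moved with Col1a1. Of these 5 genes 1 was called lower in middle-aged injured mice. Those of the recruited monocyte genes, 83.3 to 125 and 182 to 232 CPM, moved with Gdf3 and Thbs1, and 1 of these 5 genes was called higher. The oligodendrocyte genes summed to 18300 to 20300 CPM in young and 7930 to 12400 CPM in middle-aged injured pools. Of these, 5 of 6 were called lower in middle-aged injured mice. That was the direction of Id4 and Tdgf1 and of the levels of Tgfb2 and Bmp4. The sums of oligodendrocyte progenitor genes went the same way (291 to 375 and 222 to 247 CPM). So did those of astrocyte genes (4980 to 5790 and 3650 to 5140 CPM) and pericyte genes (180 to 212 and 131 to 200 CPM), with overlap. Pan-myeloid sums (1370 to 1390 and 1460 to 1950 CPM) and endothelial sums (150 to 205 and 208 to 231 CPM) went the other way. For all these markers their part in these results was not tested. Each of the 5 calls was lost when some single pools were left out, with the direction kept. For Gdf3 these were every injured pool but middle-aged replicate 3 (adjusted p between 0.0796 and 0.151). For Thbs1 they were young injured replicates 2 and 3 and middle-aged injured replicates 1 and 2 (0.111 to 0.179). For Col1a1 they were young injured replicates 1 and 2 and middle-aged injured replicate 1 (0.0566 to 0.0682). For Id4 they were young naïve replicate 2, all young injured pools and middle-aged injured replicates 1 and 2 (0.0585 to 0.17). For Tdgf1 they were all pools but middle-aged naïve replicates 2 and 3 (0.0542 to 0.25), and its call was also lost with the replicate block (0.0636), with DESeq2 size factors (0.0519) and with mitochondrial genes left out (0.0511).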

How the data were processed

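The authors isolated RNA (RIN over 8), amplified it, sequenced it on an Illumina NextSeq500, checked reads with FastQC 0.11.4, aligned them with TopHat 2.0.10 (bowtie 1.1.2, GRCm38) and counted them by gene with featureCounts. They deposited these raw counts. Annotation release, strand setting and treatment of shared reads are not given in the sources used here. The 12 columns were fitted with edgeR 4.0.16 under R 4.3.3, using TMM scaling, the filterByExpr filter and the quasi-likelihood F test, 1 coefficient per group and no covariate. Of 46078 genes 98.2% had a position in GENCODE on GRCm38, and 15866 were tested. Standard errors were obtained as the size of each log2 fold change over the root of its F statistic. Log2 CPM for correlations used a prior count of 2. Exon lengths are merged exons. Pools of the same group differed by more than sampling noise (chi-square per degree of freedom 8.04 to 38.6) and counted as separate samples.

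The members, the wider list, its roles and the markers were chosen with earlier results of these data known. Beside the members, the text gives values for up to 4 genes of each role with the largest log2 fold change in either injury contrast, among those called at both ages with no overlap of pools and a mean of at least 1 CPM, and for every listed gene called for age. The result for 1 gene that this rule names is not reported here. Other list genes, named without values, were chosen after their values were seen. For each member the 1 gene with the highest Pearson r is given of the 2 computed. The other ways to process the data were 3 other scalings, DESeq2 1.42.0, 2 other filters, mitochondrial genes left out, the replicate number as a block, only the pools compared, and each pool left out. The steps were tested on simulated counts.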

Additional observations from a re-analysis of the deposited data

How the results depend on the processing

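Over 48 fold changes of the members (Gdf15 left out where its naïve pools would be compared between ages), 944 of 998 values under the alternatives kept their direction and side of the threshold, and for injury 410 of 419 did, with 1 change of sign. For the other named genes this held for 1032 of 1071. Leaving out each pool in turn gave changes of Bmp4 with injury in middle-aged mice between -2.41 and 1.0, the sign turning without middle-aged naïve replicate 2. It was called by DESeq2 (adjusted p = 0.0499) and without a filter on low counts (0.00922), as was Bmp7 without that filter (0.0258).

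The counts of calls for age moved most. For age in naïve tissue, members called were 0 (1 with DESeq2, 0 to 2 with a pool left out) and genes of the wider list 0 (3 with DESeq2, 5 without a filter, 0 to 3 with a pool left out). For age in injured tissue they were 0 (1 with library totals, 1 with DESeq2, 3 with only the pools compared, 0 to 1 with a pool left out) and 5 (8 with DESeq2, 9 without a filter, 13 with only the pools compared, 0 to 8 with a pool left out). For the difference of injury effects the wider list had 0 (4 with DESeq2, 3 without a filter). The cause was not tested.

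Several age effects and differences of injury effects that were not called changed sign. With a pool left out they ranged in naïve tissue from -0.27 to 0.63 for Tgfb1, -0.06 to 0.05 for Tgfb2, -3.10 to 0.31 for Bmp4 and -0.63 to 1.46 for Bmp7, and in injured tissue from -0.10 to 0.01 for Tgfbr1. Tgfb2 in naïve tissue was -0.00034 with upper-quartile factors and -0.01 without a filter. Differences of injury effects ranged from -0.27 to 0.63 for Tgfb1, -0.19 to 0.30 for Tgfb3, -1.92 to 1.49 for Bmp4, -1.85 to 0.25 for Bmp7 and -0.06 to 0.17 for Smad7. With library totals they were -0.07 for Tgfb1, -0.10 for Tgfb3 and -0.02 for Smad7. For Tgfb3 they were -0.0048 with upper-quartile factors, -0.0022 without mitochondrial genes and -0.0019 with the stricter filter.

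Library totals in place of TMM moved the median log2 fold change of all genes by 0.20 in young and 0.11 in middle-aged mice, with 5380 genes higher and 3236 lower in young mice in place of 4483 and 4177. No member's injury effect changed sign under any scaling. The replicate block left 9 and 8 members and 57 and 55 listed genes called for injury in young and middle-aged mice. For age in injured tissue it ended the call of Tdgf1 (adjusted p = 0.0636). The numbers did not pair the pools: 18 correlations of same-numbered pools lay between -0.113 and 0.153, and 5 of 12 pools correlated best with their own number. Depth limits Gdf15, Inhba and Bmp4, which had few counts, and also Tdgf1 of the wider list in injured tissue. Pools of 5 mice leave the spread between mice unknown.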
